A study of Mus musculus with 8 samples.

Results

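The genes of cytochrome P450 families 1 to 4 are described here by the density of H3K27me3 over each gene in mouse embryonic stem cells. Members are protein-coding genes whose symbol starts with Cyp1, Cyp2, Cyp3 or Cyp4 and whose RefSeq span is matched by an interval of the table, 1 interval per gene. All 47 such genes on the chromosomes measured here (1 to 10, X, Y and M) were found, among 13190 protein-coding and 20220 named genes measured. A further 32 genes that fit the same symbol rule, with them the Cyp2c and Cyp2d clusters, lie on chromosomes not analysed here. The 47 genes fall into 18 subfamilies.

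Cells were of the E14tg2a line (129SV background) and stably carried cRAF-ErT2, a RAF kinase fused to a receptor domain that 4-hydroxytamoxifen (4OHT) switches on, which starts ERK signalling. Every culture had serum and LIF throughout. The GSK3 inhibitor Chir99021 (2 µM) was present at first and was replaced by the FGF receptor blocker PD173074 (250 nM) for the last 24 h before treatment. Clones A and B were each taken untreated (0 h) and after 2 h of 250 nM 4OHT, which gives 2 libraries per time and 4 in all. Both clones come from 1 line, both carry the cassette, and no cells without it enter the comparison, so a p-value here rests on the scatter of 4 libraries, part of which may be technical.

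Cytochromes P450 are haem enzymes that insert an oxygen atom into their substrates, with electrons from the reductase Por. Families 1 to 3 oxidise drugs, pollutants and steroids, and family 4 hydroxylates fatty acids; most members are used in liver, kidney, gut, lung or olfactory tissue rather than in embryonic stem cells. Many arose by tandem duplication and lie in clusters of near copies. H3K27me3 is set by Polycomb repressive complex 2, which in stem cells gathers at CpG-rich promoters of silent regulators of development.

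Density is the count over an interval per kb of its length and per 1000000 counts of the library's column total. It is given as a multiple of the density of the median named gene (0.357), and a gene was called marked at 4 times that density or more. Column totals ran from 70378127 to 92518605 counts, and a member held 9 to 2110 counts in a library. Intervals hold introns as well as exons. Values of a member are given in a fixed order: clone A untreated, clone B untreated, clone A treated, clone B treated. As a check of the labelled cell type, stem cell markers (7 of 10 listed were measured) had a median of 0.305 times the median gene, with 0 of 7 marked. The hepatocyte marker genes had 1.56 times (0 of 5 marked), fibroblast genes 2.25 times (1 of 5) and primitive endoderm genes 7.46 times (1 of 2). Single genes of the lists overlapped, with stem cell markers from 0.230 to 3.07, hepatocyte genes from 0.972 to 2.53 and fibroblast genes from 0.703 to 6.05 times. The mark says nothing direct of their expression. The highest stem cell marker was Utf1, at 3.84, 2.05, 4.71 and 1.76 times, so its level went with the clone and passed the limit in 1 library.

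The members carried H3K27me3 at a middle level. Their median density was 1.19 times the median gene (0.426 ± 0.0197 counts per kb per 1000000, SD of the median over 4 libraries), against 0.801 times for all protein-coding genes. None of the 47 was marked, where 5.43% of protein-coding genes were. Between 0.5 and 2 times the median gene lay 36 members (76.6%), against 46.6% of protein-coding genes. Below 0.5 times lay 5 members (10.6%), against 36.8%, and at 2 times or more 6 members (12.8%), against 16.5%. The middle quartiles of the members ran from 0.873 to 1.63 times the median gene, and those of protein-coding genes from 0.324 to 1.53 times. These shares are descriptions, since members of a cluster share position and sequence.

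**Figure D1:**
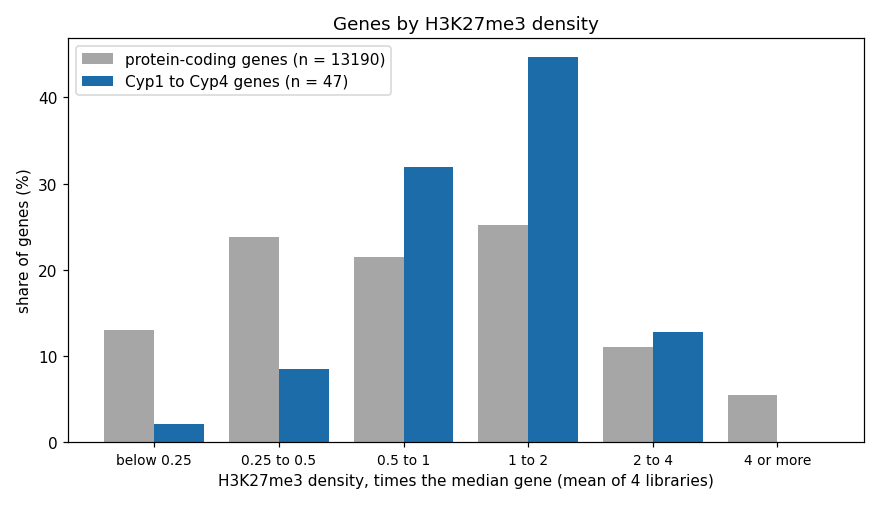
Share of genes (vertical axis, %) by class of H3K27me3 density as a multiple of the median gene (horizontal axis, mean of 4 libraries), for 13190 protein-coding genes in grey and the 47 members in blue. The classes from 0.5 to 2 hold 36 of the 47 members, and the class of 4 times or more, with 5.43% of protein-coding genes, holds no member.

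By the mean of the 4 libraries the densest member was Cyp2r1, the vitamin D 25-hydroxylase of liver, at chr7:114550163-114563035 (mm10, minus strand). It stood at 4.07, 3.62, 3.58 and 3.70 times the median gene, with 1312 to 1494 counts in a library. The 0 h clone A library alone lay above the limit for a marked gene, and the mean over the 4 libraries was 3.72 times (density 1.33 ± 0.0841, SD, n = 4). In clone A alone Cyp1a1 was denser, with a mean density of 1.37 against 1.35 for Cyp2r1. Among the 39 members with a RefSeq promoter window, Cyp2r1 is also the richest in CpG at its start. The RefSeq window of 250 bases before to 50 after the start (GRCm38.p6) held 22 CpG, where the median member window held 3 and the median window of 11001 protein-coding genes held 14. At least 15 CpG were found in 3 of the 39 member windows in the RefSeq table (7.69%), against 48.2% of protein-coding windows. Over all protein-coding genes the CpG-rich windows went with less of the mark, at a median of 0.434 times the median gene against 1.03 times for the others. The 3 member windows are shown, 5′ to 3′ along the gene and with each CpG in capitals, because they are the exceptions among the members.
Cyp2r1: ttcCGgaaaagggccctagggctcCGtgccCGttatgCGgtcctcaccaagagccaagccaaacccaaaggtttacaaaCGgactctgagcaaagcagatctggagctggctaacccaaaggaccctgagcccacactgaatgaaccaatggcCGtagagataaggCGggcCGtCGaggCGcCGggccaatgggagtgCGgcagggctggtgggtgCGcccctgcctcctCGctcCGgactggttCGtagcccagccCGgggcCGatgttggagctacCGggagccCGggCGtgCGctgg
Cyp2s1: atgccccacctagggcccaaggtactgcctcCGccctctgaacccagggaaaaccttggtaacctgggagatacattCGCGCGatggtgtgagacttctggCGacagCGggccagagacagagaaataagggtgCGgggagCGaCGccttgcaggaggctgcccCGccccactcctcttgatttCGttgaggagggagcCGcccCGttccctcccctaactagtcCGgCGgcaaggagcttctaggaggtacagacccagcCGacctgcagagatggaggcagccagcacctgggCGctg
Cyp4v3: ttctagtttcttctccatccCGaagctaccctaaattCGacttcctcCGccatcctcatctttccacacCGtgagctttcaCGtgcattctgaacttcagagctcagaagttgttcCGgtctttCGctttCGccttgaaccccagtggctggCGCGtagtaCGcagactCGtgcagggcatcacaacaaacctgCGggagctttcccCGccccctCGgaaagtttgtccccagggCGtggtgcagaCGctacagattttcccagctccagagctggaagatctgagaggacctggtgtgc
Cyp2s1, an epithelial enzyme that acts on retinoids, had 17 CpG, as did Cyp4v3, a fatty acid hydroxylase whose human counterpart is mutated in a retinal dystrophy. Their densities differed from that of Cyp2r1 and from each other. Cyp2s1 stood at 0.721, 0.662, 0.776 and 0.710 times the median gene. Cyp4v3 stood at 1.47, 1.55, 1.44 and 1.60 times. The long noncoding gene Gm30504 overlaps Cyp4v3, so reads there cannot be assigned to either.

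The counts were denser in the stretch just 5′ of the Cyp2r1 interval used than over that interval. A longer annotated interval reaches 2580 bases further upstream than the one used. Reading the difference of their counts over the extra bases, the added 5′ stretch stood at 6.30 times the median gene (6.35, 6.86, 5.70 and 6.28 in the 4 libraries), against 3.72 times in the interval used. With the longer interval Cyp2r1 came to 4.15 times, which is past the limit. The nearest genes with a value, Pde3b (1.19 times) and Calca (1.72 times), were both less dense.

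Cyp1a1 and Cyp1a2, neighbours on chromosome 9 in opposite directions, were the next densest. Both oxidise polycyclic aromatic compounds and are the classic targets of the aryl hydrocarbon receptor. Cyp1a1 (chr9:57687928-57703824, plus strand) stood at 3.81, 3.15, 3.96 and 2.84 times the median gene. Both clone A libraries were above both clone B libraries. Cyp1a2 (chr9:57676937-57683655, minus strand) stood at 2.70, 2.61, 3.03 and 2.49 times. Their promoter windows are shown with matches of TATAAA, the TATA box, and GCGTG, the core that the aryl hydrocarbon receptor binds with Arnt, in capitals, to set the best known response element of the family beside the mark.
Cyp1a1: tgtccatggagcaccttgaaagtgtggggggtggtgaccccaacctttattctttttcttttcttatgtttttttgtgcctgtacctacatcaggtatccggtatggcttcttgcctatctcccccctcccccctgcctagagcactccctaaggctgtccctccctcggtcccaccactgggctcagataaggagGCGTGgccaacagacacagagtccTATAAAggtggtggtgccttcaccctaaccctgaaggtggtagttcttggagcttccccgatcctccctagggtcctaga
Cyp1a2: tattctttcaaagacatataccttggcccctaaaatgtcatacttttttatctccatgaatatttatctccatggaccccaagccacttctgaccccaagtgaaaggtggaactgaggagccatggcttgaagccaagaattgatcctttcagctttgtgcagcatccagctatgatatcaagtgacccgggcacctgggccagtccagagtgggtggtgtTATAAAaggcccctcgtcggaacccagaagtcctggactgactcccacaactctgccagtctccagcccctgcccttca
Each window held 1 TATAAA, and the Cyp1a1 window also 1 GCGTG. Searched on both strands, TATAAA was in 14 of 39 member windows (35.9%) against 13.0% of protein-coding windows. GCGTG was in 8 (20.5%) against 39.4%, and TGACCT, a hexamer that nuclear receptors recognise, in 15 (38.5%) against 14.1%. A match is a string of letters and not a bound site, and these motifs vary with base composition, which differed between the sets (median G+C 49.7% in members, 56.7% in protein-coding windows). The Cyp1a1 window lies 9685 bases inside the interval, at an inner start. The 9685 bases upstream of that start stood at 3.70 times the median gene and the remainder at 3.02 times, with the upstream stretch higher in 4 of 4 libraries.

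The chromosome 9 pair did not stand alone. To the left, Cplx3 stood at 3.72 times the median gene and Lman1l at 2.86 times, and Csk, 23.3 kb away, at 0.947 times. To the right, Edc3, 4.73 kb from Cyp1a1, stood at 0.266 times and Clk3 at 0.311 times. The noncoding genes Gm32392, on the left, and Gm32510, on the right, stood at 4.01 and 2.89 times. Gm32392 overlaps Lman1l and shares reads with it. The 8 other protein-coding genes within 100 kb of the pair had a median of 0.543 times.

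Of the other members at 2 times the median gene or more, 3 are enzymes with well known substrates. Cyp4f18, which hydroxylates leukotriene B4 in leukocytes (chr8:71988482-72009634), stood at 2.36, 2.28, 2.58 and 2.42 times. Its 5′ 7750 bases were denser than the remainder (2.82 against 2.16 times, in 4 of 4 libraries). Cyp2a5, the coumarin hydroxylase (chr7:26835339-26843264), stood at 2.00, 2.22, 2.13 and 2.27 times. Cyp2e1, which oxidises ethanol (chr7:140763832-140774981), stood at 1.99, 2.22, 2.08 and 2.16 times. Just below 2 times came Cyp2u1, at a mean of 1.91 times.

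**Figure D2:**
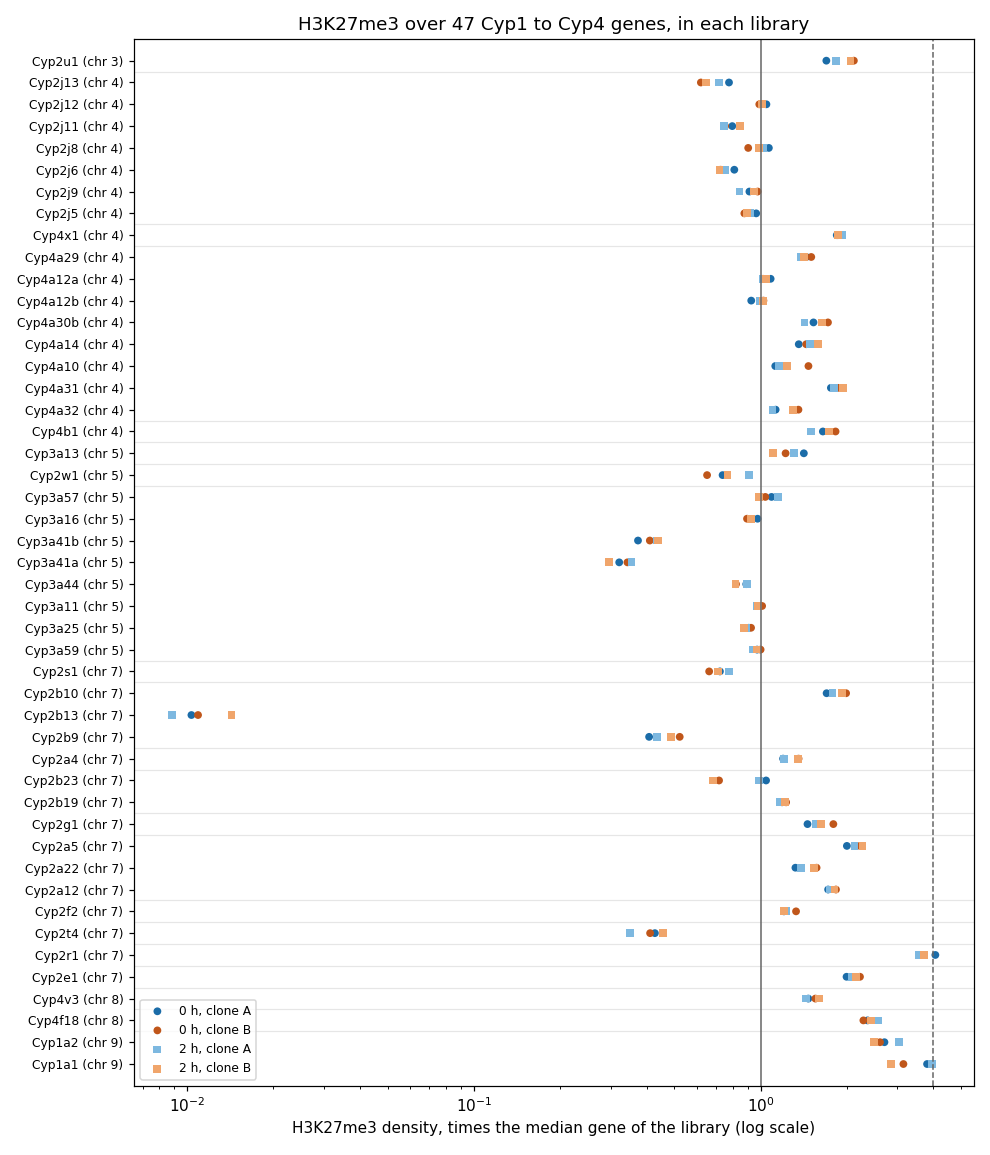
H3K27me3 density of each of the 47 members (rows, in genome order, grouped by subfamily) as a multiple of the median gene of the library (horizontal log axis), with circles for 0 h, squares for 2 h, blue for clone A and orange for clone B. The solid line is the median gene and the dashed line the limit of 4 times, which only Cyp2r1 at 0 h in clone A passes; Cyp2b13 lies far to the left of all other members.

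The larger subfamilies differed in level. Among those with at least 4 members, the median was 1.60 times the median gene for Cyp2a (4 genes), 1.33 for Cyp4a (8), 0.926 for Cyp3a (9), 0.910 for Cyp2j (7) and 0.852 for Cyp2b (5). Cyp2a was above Cyp4a, and Cyp4a above the other three, in 4 of 4 libraries. Cyp3a was above Cyp2j in 4 of 4 libraries as well, though by 0.926 against 0.910 times. The order of Cyp2b against Cyp3a and against Cyp2j held in 2 of 4 libraries each and went with the clone. Cyp2b was above both in clone A (1.04 and 0.987 times) and below both in clone B (0.716 and 0.681 times). Its median gene in each library was Cyp2b23. Cyp2b therefore has no fixed place against these subfamilies.

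The Cyp2a genes, which hydroxylate steroids and coumarin, were all above the median gene, from 1.27 to 2.14 times. Cyp2a4, the testosterone 15α-hydroxylase and the sparsest, stood at 1.20, 1.36, 1.21 and 1.35 times. Cyp2a5 was the densest. The promoter windows of these 2 genes are 98.3% identical, and the authors' counting could split reads between near copies, so a share of reads may have gone to the wrong gene.

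The Cyp4a genes hydroxylate fatty acids at the chain end, and several are targets of the receptor Ppara. Cyp4a31 was the densest, at 1.76, 1.86, 1.80 and 1.94 times the median gene. Cyp4a12b was the sparsest, at 0.927, 1.02, 0.994 and 1.02 times. Cyp4a10 and Cyp4a14, both such targets, had means of 1.24 and 1.46 times. The cluster on chromosome 4 also holds Cyp4x1, at 1.84, 1.86, 1.93 and 1.86 times, and Cyp4b1, a lung enzyme, at 1.65, 1.83, 1.502 and 1.73 times. Its 10 members had a median of 1.44 times. Left of the cluster, 36.9 kb from Cyp4x1, lies Tal1, a regulator of blood development, at 8.09 times the median gene, and between them Pdzk1ip1, at 3.22 times. The noncoding Cyp4x1os overlaps Cyp4x1 and stood at 3.56 times.

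The Cyp3a genes hold the main drug oxidases of liver and gut. Cyp3a13, the intestinal form, which lies apart from the cluster, was the densest, at 1.41, 1.22, 1.31 and 1.10 times the median gene. Cyp3a11, the main form of adult liver, had a mean of 0.977 times. The sparsest were the female liver genes Cyp3a41a, at 0.321, 0.343, 0.354 and 0.297 times, and Cyp3a41b, at 0.374, 0.411, 0.436 and 0.439 times. The other 7 Cyp3a genes lay between 0.852 and 1.26 times. These 2 sparse genes are a pair of near copies, and their windows are shown with positions that differ in an ungapped comparison in capitals (97.3% identical).
Cyp3a41a: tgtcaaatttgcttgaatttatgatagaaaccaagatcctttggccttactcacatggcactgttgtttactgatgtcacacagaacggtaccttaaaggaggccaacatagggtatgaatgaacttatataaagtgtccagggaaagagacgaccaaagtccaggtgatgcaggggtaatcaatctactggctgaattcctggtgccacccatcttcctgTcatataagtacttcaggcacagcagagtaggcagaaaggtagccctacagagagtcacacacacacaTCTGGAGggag
Cyp3a41b: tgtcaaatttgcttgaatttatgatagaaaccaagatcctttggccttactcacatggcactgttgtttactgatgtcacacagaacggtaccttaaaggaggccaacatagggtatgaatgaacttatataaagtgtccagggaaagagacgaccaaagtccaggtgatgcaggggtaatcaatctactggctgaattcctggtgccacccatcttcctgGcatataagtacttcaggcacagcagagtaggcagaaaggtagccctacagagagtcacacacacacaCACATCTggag

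The Cyp2j genes, epoxygenases of arachidonic acid, were the most even, from 0.685 to 1.01 times the median gene. Cyp2j12 was the densest, at 1.05, 0.989, 1.01 and 1.01 times. Cyp2j13 was the sparsest, at 0.776, 0.619, 0.716 and 0.646 times. Cyp2j6 was uneven along its length, with 1.21 times in the 5′ 5568 bases and 0.689 times in the remainder.

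The Cyp2b genes ranged most widely. Cyp2b10, the main target of the receptor Nr1i3 in liver, was the densest, at 1.70, 1.99, 1.78 and 1.92 times the median gene. Cyp2b19, an epoxygenase of skin, had a mean of 1.19 times. Cyp2b9, a female liver form, had 382, 566, 526 and 549 counts, or 0.408, 0.522, 0.434 and 0.486 times. Cyp2b13, a further female liver form (chr7:26061495-26096196, plus strand), had 9, 11, 10 and 15 counts over 34702 bp, or 0.0104, 0.0109, 0.00888 and 0.0143 times. Of 8705 protein-coding genes of at least 10000 bp, 12 had a lower density. Cyp2b13 and Cyp2b9 have almost the same promoter window (99.3% identical). Both are shown, with the differing positions in capitals, because the closest pair among the 39 member windows belongs to genes far apart in counts.
Cyp2b13: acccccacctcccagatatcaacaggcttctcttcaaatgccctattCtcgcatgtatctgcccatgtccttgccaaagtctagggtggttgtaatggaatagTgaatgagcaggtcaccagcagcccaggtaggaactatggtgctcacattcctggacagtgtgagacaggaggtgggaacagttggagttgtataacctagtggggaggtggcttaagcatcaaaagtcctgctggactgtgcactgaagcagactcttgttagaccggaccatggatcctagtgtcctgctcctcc
Cyp2b9: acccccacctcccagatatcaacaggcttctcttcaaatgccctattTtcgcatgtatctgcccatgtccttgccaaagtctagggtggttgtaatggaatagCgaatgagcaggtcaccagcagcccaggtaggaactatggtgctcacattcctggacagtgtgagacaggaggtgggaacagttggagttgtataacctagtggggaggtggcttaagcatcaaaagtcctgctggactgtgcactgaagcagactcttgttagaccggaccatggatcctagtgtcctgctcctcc
Of the 39 members with a window, 8 have one at least 95% identical to that of another member: Cyp2a4, Cyp2a5, Cyp2b9, Cyp2b13, Cyp3a25, Cyp3a59, Cyp3a41a and Cyp3a41b. Of the 5 members below 0.5 times the median gene, 4 are among them, and the other is Cyp2t4. Whether reads were lost or shared between these copies was not tested, and the input libraries were not analysed. Without these 8 genes the median member stood at 1.24 times the median gene. Just under the cut came Cyp3a16 (94.6% identical) and Cyp3a44 (93.9%), at 0.926 and 0.852 times. Members without a window, Cyp4a12a and Cyp4a12b among them, could not be compared, so near copies may remain among the rest.

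The remaining subfamilies have 1 measured gene each. Cyp2u1, a hydroxylase of long-chain fatty acids, stood at 1.70, 2.11, 1.83 and 2.06 times the median gene. It was sparser at the 3′ end, with 1.21 times in the last 4975 bases and 2.37 times in the remainder, as was Cyp2w1, with 0.423 times in the last 2671 bases and 0.973 times in the remainder. Such unevenness did not run 1 way in all members. In Cyp4a30b the last 9862 bases were denser than the remainder (1.73 against 1.40 times, in 4 of 4 libraries). For its last 11878 or 12042 bases the values were 1.62 against 1.49 times, in 3 of 4 libraries. In Cyp4a14 the last 1802 bases were denser (1.55 against 1.44 times, in 3 of 4). Cyp2g1, an enzyme of the olfactory mucosa, stood at 1.46, 1.79, 1.56 and 1.62 times. Cyp2f2, the naphthalene oxidase of lung club cells, stood at 1.21, 1.33, 1.23 and 1.21 times. Cyp2w1, a form of fetal gut, stood at 0.737, 0.651, 0.913 and 0.767 times, from 129 to 207 counts. Cyp2t4 stood at 0.428, 0.412, 0.349 and 0.457 times, from 52 to 67 counts. These last 2 are short genes with few counts, and their order against Cyp2s1 and Cyp3a41b is not settled by so few reads.

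On chromosome 7 the cluster from Cyp2s1 to Cyp2t4 covers 1356 kb with 13 members. Its members had a median of 1.24 times the median gene, and 17 other protein-coding genes in and within 100 kb of it a median of 0.419 times. Those inside the cluster were nearer to the members. Vmn1r184 stood at 1.23, Vmn1r185 at 1.11, Nlrp9a at 1.02, Nlrp4a at 0.771 and Nlrp9c at 0.525 times. The level is thus not particular to the P450 genes there. At the right end lie Cyp2f2 (1.24 times), Cyp2t4 (0.409 times) and then Rab4b, a small GTPase (0.256 times), and Snrpa, a spliceosome subunit (0.217 times). At the left end Hnrnpul1, 46.2 kb from Cyp2s1, stood at 0.209 times and Axl, a receptor kinase, at 1.71 times. The pseudogene Gm6434, between Cyp2s1 and Cyp2b10, reached 8.88 times over 3835 bp.

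**Figure D3:**
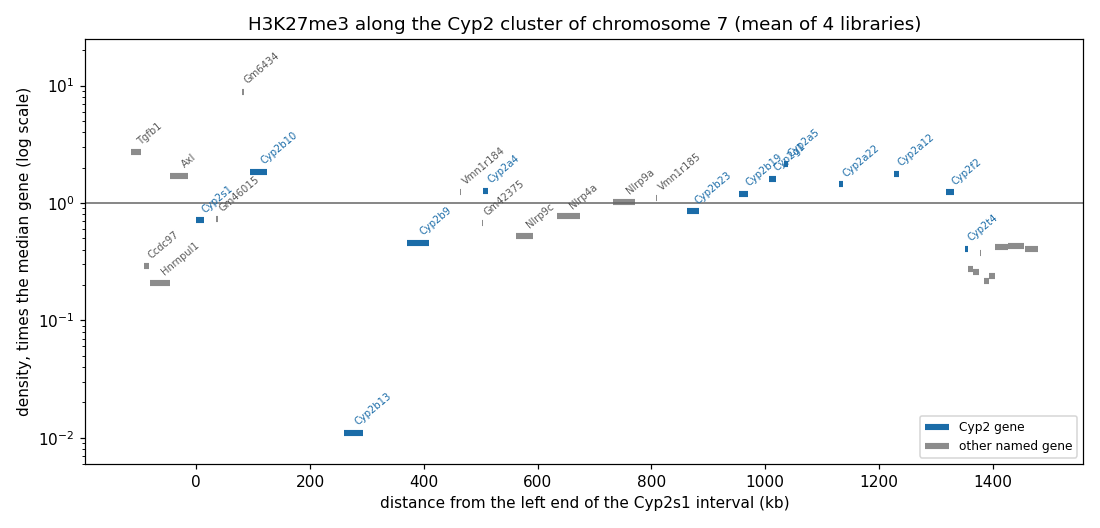
H3K27me3 density as a multiple of the median gene (vertical log axis, mean of 4 libraries) along the chromosome 7 cluster (horizontal axis, kb from the left end of the Cyp2s1 interval), with members in blue, other named genes in grey and the width of a bar as the length of the gene. Cyp2a, Cyp2f and Cyp2g genes lie between 1.24 and 2.14 times, Cyp2b13 at 0.0111 times, and the unnamed grey genes at the right end between 0.217 and 0.427 times.

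The effect of 2 h of 4OHT was tested with edgeR over 50037 intervals, all 47 members among them. No member and no interval passed an adjusted p of 0.05 in either direction (0% called). At an unadjusted p under 0.05 stood 188 intervals (0.376%) in edgeR, 2078 with clone as a block and 2 in DESeq2, and 0 members in edgeR without the block. The fitted log2 change was above 0 in 14 members and below 0 in 33. Its median was −0.03 in members and 0.01 over all intervals tested, and members ran from −0.14 (Cyp3a13) to 0.26 (Cyp2w1). The 95% confidence interval of the change lay within 1.5-fold in either direction for 43 of 47 members, and for 46 with clone as a block. The exceptions without the block were Cyp2w1, Cyp2b13, Cyp2b23 and Cyp2t4.

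The highest fitted log2 change was that of Cyp2w1, at 0.26 (SE 0.17, interval −0.14 to 0.67, edgeR adjusted p = 1.00), with 0.29 within clone A and 0.23 within clone B. It did not pass the test. Its counts were the lowest but for Cyp2t4 and Cyp2b13. Cyp3a41b had a log2 change of 0.14 and Cyp4a14 of 0.11, both above 0 in each clone. In the other direction Cyp3a13 had a log2 change of −0.14 (SE 0.14, interval −0.48 to 0.19, edgeR adjusted p = 1.00), with −0.13 in clone A and −0.16 in clone B. With clone as a block its unadjusted p was 0.0420 and its adjusted p 1.00. Cyp4b1 had a log2 change of −0.12 and Cyp4a30b of −0.11, below 0 in each clone.

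Moves in both clones were counted beside those of all protein-coding genes. Higher at 2 h in both clones were 7 members (14.9%), where 29.8% of protein-coding genes were, and lower in both were 15 (31.9%), where 20.6% were. Both 2 h libraries lay above both 0 h libraries in 4 members (8.51%, against 12%), and below them in 3 (6.38%, against 7.68%). The median member had a log2 change of −0.01 (clone A) and −0.02 (clone B). For protein-coding genes the medians were −0.01 (clone A) and 0.04 (clone B). The density rose in 21 of 47 members in clone A and 18 in clone B, against 6215 and 8199 of 13190 protein-coding genes.

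**Figure D4:**
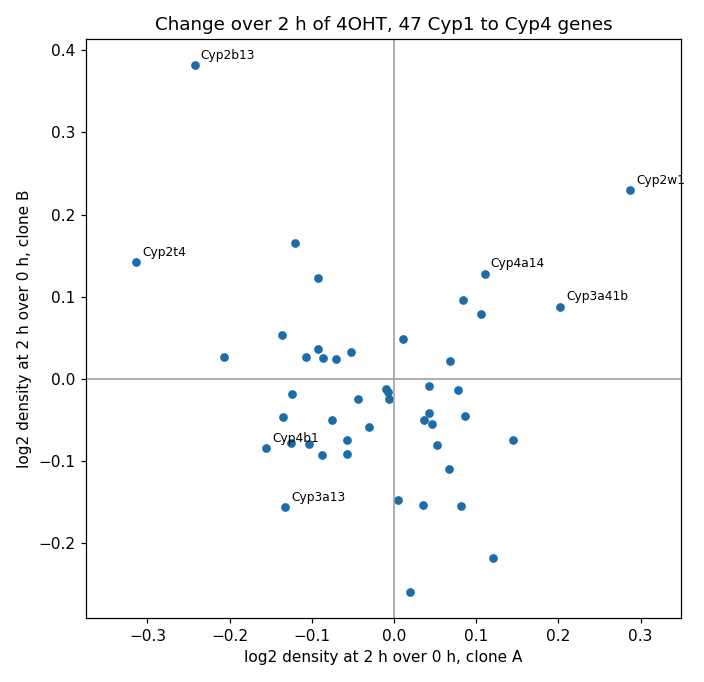
Change in H3K27me3 density over 2 h of 4OHT (log2 of 2 h over 0 h) of each of the 47 members in clone A (horizontal axis) and clone B (vertical axis), 1 point per gene and 1 library per clone and time. Members lie around 0 in both clones, with Cyp2w1 at 0.29 and 0.23, and Cyp2b13, with 9 to 15 counts, split between the clones.

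More intervals were called between the clones than between the times. In the comparison of clone A with clone B, 8633 of 50037 intervals (17.3%) were higher in clone A and 5132 (10.3%) in clone B at an edgeR adjusted p of 0.05. Among the members 4 (8.51%) were higher in clone A and 6 (12.8%) in clone B. In either direction, 10 members (21.3%) differed, against 27.5% of intervals. With 1 interval per named gene, 6 of 47 members were higher in clone A and 7 in clone B, against 3181 and 2112 of 19941 intervals. The lower share among members thus depends on the setting. The 2 libraries of a clone were taken at different times from the same clone, so the comparison is of these 2 clones and not of clones at large. Of the 7 stem cell markers 1 differed between the clones: Utf1, higher in clone A by 1.18 on the log2 scale (SE 0.17, edgeR adjusted p = 2.0e-10), while the other 6 had edgeR adjusted p from 0.467 to 0.720. The median of the 7 ran from 0.271 to 0.353 times the median gene over the libraries. Of the other marker lists, 1 of 5 hepatocyte (Alb), 1 of 5 fibroblast (Thy1) and 1 of 2 primitive endoderm genes (Sox17) were higher in clone A, and 1 fibroblast gene (Col1a2) in clone B. The part of these markers in the clone differences of the members was not tested.

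Cyp2b23 had the largest difference. Clone A gave 555 (0 h) and 679 (2 h) counts, and clone B 441 and 437. This is 1.04 and 0.987 times the median gene for clone A against 0.716 and 0.681 times for clone B, with no overlap. The log2 difference was 0.54 (SE 0.09, edgeR adjusted p = 4.1e-08). Among the called members Cyp1a1 followed, at 3.81 and 3.96 times (clone A) against 3.15 and 2.84 times (clone B), also with no overlap. Its log2 difference was 0.38 (SE 0.06, edgeR adjusted p = 2.8e-08). These 2 genes kept the call in all 12 alternatives, with highest adjusted p of 0.000547 (Cyp2b23) and 0.0141 (Cyp1a1). The fitted difference of Cyp2b13, with 9 to 15 counts, was −0.40 and did not pass (edgeR adjusted p = 0.573).

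Around Cyp1a1 some neighbours on either side were also higher in clone A. To the left the log2 difference was 0.27 for Cplx3, 0.24 for Gm32392, 0.22 for Lman1l and 0.23 for Csk, with edgeR adjusted p of 0.00427, 0.00384, 0.00749 and 0.0189. Most of Gm32392 lies inside Lman1l, so these calls share reads and are not separate. Further left Ulk3 (0.25, edgeR adjusted p = 0.216) and Scamp2 (−0.0013, edgeR adjusted p = 0.996) did not pass. To the right Gm32510 was higher in clone A by 0.53 (edgeR adjusted p = 0.000977) and Arid3b higher in clone B (−0.26, edgeR adjusted p = 0.0209). Edc3 (0.0026) and Clk3 (−0.24) did not pass (edgeR adjusted p = 0.991 and 0.251). Cyp1a2, between Csk and Cyp1a1, had 0.18 (SE 0.09, edgeR adjusted p = 0.124), which did not pass. Whether the difference reaches Cyp1a2 was not detectable with these libraries.

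The other 8 members past the threshold had smaller differences, and each lost the call in 3 or 4 of the 12 alternatives, DESeq2 among them. The adjusted p rose as far as 0.6001 (Cyp4a10, without the 0 h clone B library). In clone A, Cyp3a13 was higher by 0.23 on the log2 scale (edgeR adjusted p = 0.00512) and Cyp2j13 by 0.24 (0.0135). Of the members higher in clone B, Cyp4a32 stood at 1.35 and 1.29 times the median gene in clone B and 1.13 and 1.10 times in clone A. Cyp4a10 stood at 1.47 and 1.23 times in clone B and 1.12 and 1.16 times in clone A. Their log2 differences were −0.24 and −0.24. Cyp2u1 (−0.24), Cyp2b9 (−0.25), Cyp4b1 (−0.17) and Cyp2b10 (−0.16) went the same way, with edgeR adjusted p from 0.0157 to 0.0456. In DESeq2 2 of 47 members were higher in clone A and 0 in clone B, against 5666 and 3028 of 50398 intervals.

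Without a threshold, both clone A libraries lay above both clone B libraries in 11 members (23.4%, against 28.5% of protein-coding genes), and the reverse held for 20 (42.6%, against 29.5%). The called members of the chromosome 7 cluster did not all go the same way. Cyp2b23 was higher in clone A, while Cyp2b9 and Cyp2b10 and the nearby Nlrp4a (log2 −0.23, edgeR adjusted p = 0.0105) were higher in clone B. Of the other members there, Cyp2s1 alone had a log2 difference above 0 (0.14). In the Cyp4 cluster of chromosome 4 the called members, Cyp4a10, Cyp4a32 and Cyp4b1, were all higher in clone B. Above 0 there were only Cyp4x1 and Cyp4a12a, each at 0.03.

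**Figure D5:**
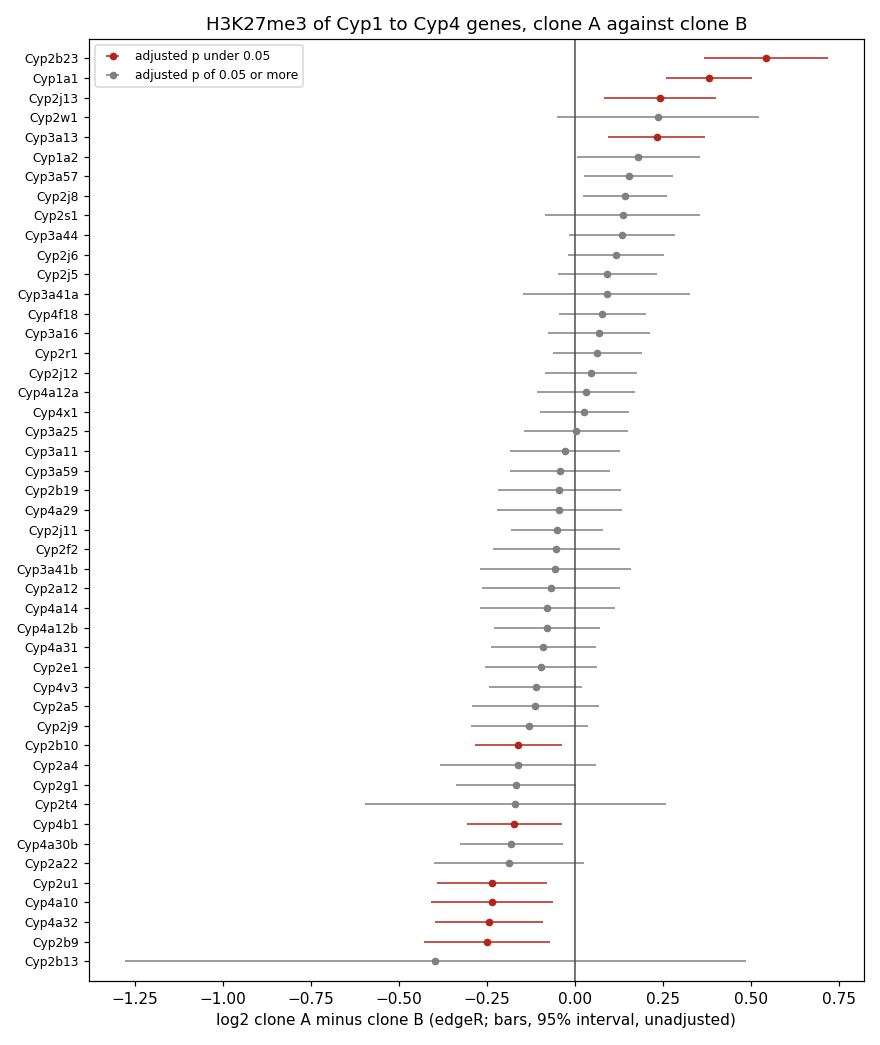
Log2 difference in H3K27me3 between clone A and clone B (horizontal axis; right of 0 is higher in clone A) for the 47 members (rows, sorted), as fitted by edgeR with 95% confidence intervals as bars. Red marks the 10 members with an adjusted p under 0.05. Cyp2b23 at 0.54 and Cyp1a1 at 0.38 lie farthest right. Cyp2b13, with 9 to 15 counts, lies farthest left at −0.40 and has the widest bar.

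Some regulators of these enzymes were marked. Of 18 measured, 2 passed the limit (median 1.66 times the median gene): Foxa2 at 10.8 and Cebpa at 10.6 times, both liver transcription factors. Rxrg, a partner of nuclear receptors, lay just below the limit at 3.99 times, followed by the liver factor Onecut1 at 3.77 times. Nr1i3, the receptor that drives Cyp2b10, stood at 1.60 times, and Arnt, the partner of the aryl hydrocarbon receptor, at 0.266 times. Members of other P450 families were marked in 3 of 12 cases (median 1.65 times). These were Cyp26b1, which clears retinoic acid, at 8.52 times, Cyp7a1, the rate-limiting enzyme of bile acid synthesis, at 6.09 times, and Cyp24a1, which breaks down vitamin D, at 5.51 times. Cyp51, which all cells use to make sterols, stood at 0.301 times. Cyp8b1, a bile acid enzyme, stood at 3.43 times.

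The electron donors and haem suppliers, which most cells use, were sparse, with a median of 0.341 times the median gene and 0 of 6 marked. Por stood at 0.437 times, and Alas1, which starts haem synthesis, was the densest at 0.581 times. The lowest library median of these 6 genes was 0.320 and the highest 0.391 times.

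Other families of drug-metabolising enzymes lay near the P450 members. Flavin monooxygenases had a median of 1.31 times the median gene (0 of 7 marked), glutathione transferases 1.27 times (1 of 15), sulfotransferases 0.924 times (0 of 17) and glucuronosyltransferases 0.835 times (1 of 14). The marked ones were Gstm5, at 4.70 times, and Ugt1a2, at 4.52 times. The Ugt1a genes share their 3′ end, so their intervals hold the same reads in part. A list of 15 liver genes had a median of 1.59 times with 0 marked. Its densest gene, Hpd of tyrosine breakdown, stood at 3.55 times, and Alb, serum albumin, at 0.972 times. In the comparison of 2 h with 0 h, 0 genes of these lists were called higher or lower.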

How the data were processed

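H3K27me3 ChIP-seq libraries of 2 clones at 2 times were compared. Per the file headers, the deposited values are raw counts over transcript-wide intervals, from start to end with introns. The submitters' processing notes name Bowtie2, bedtools and mm10. Tool versions, read filters and the handling of multimapping reads: not given in the sources used here. Left out were the 4 input libraries and 12 other per-library columns. Intervals overlap, so totals of a column overstate the reads sequenced. Overlapping genes share reads.

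Intervals (50398) were named by RefSeq spans of GRCm38.p6, where overlap divided by union reached 0.5 and exceeded that of the next gene by 0.2. Where a gene had several intervals (26 members), the best overlap was used. Promoter windows came from RefSeq (39 of 47 members matched); the planned protein identity was not run, and window identity was used.

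Counts were tested with edgeR 4.0.16 (quasi-likelihood, TMM, filterByExpr), with Benjamini-Hochberg adjustment over 50037 intervals and a threshold of 0.05. The main fit had no block. DESeq2 1.42.0, other scalings and filters, 1 interval per gene, a clone block and omission of single libraries were alternatives. R 4.3.3 and Python 3.11.15 were used, and the fit was tested on simulated data. The members and lists were chosen with earlier results of these data known. Genes were named by rule: the densest and sparsest of each subfamily with at least 3 members, all of smaller ones, members past a threshold, the 3 per direction of lowest p that moved alike in both clones, and up to 4 of highest density per list. Neighbours and further members were named after their values were seen. Clone letters pair the libraries, since per the labels each clone was taken untreated and treated. Libraries of a clone deviated together from the time means (r = 0.530 over 50037 intervals, which are not independent).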

Additional observations from a re-analysis of the deposited data

Results flagged for a closer look

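In 11 of the 18 subfamilies the median log2 change over 2 h of 4OHT had opposite signs in the 2 clones, with 1 library per clone and time. Opposite signs were common among all genes. Of protein-coding genes, taken singly, 29.8% were higher in both clones and 20.6% lower in both. Subfamily medians and single genes are unlike units, so the count of subfamilies cannot be set against these shares. No conclusion on a response particular to the subfamilies is drawn from it. Among those with more than 1 gene, the change in clone A minus that in clone B was −0.146 for Cyp2j (medians −0.12 and 0.03), 0.0382 for Cyp2a (0.02 and −0.02) and 0.204 for Cyp1a (0.09 and −0.11). Among the single genes it was 0.132 for Cyp2u1, 0.0509 for Cyp4x1, 0.235 for Cyp2g1, 0.152 for Cyp2f2, −0.456 for Cyp2t4, −0.233 for Cyp2r1, 0.0862 for Cyp2e1 and −0.0845 for Cyp4v3. None of these differences between the clones was tested, and none of these genes changed over 2 h by an edgeR adjusted p under 0.05.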

How the results depend on the processing

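Counts of members changed over 2 h were 0 in each direction under all 12 alternatives, and the median member stood between 1.16 and 1.24 times the median gene under its 8 alternatives. With clone as a replicate block 0 intervals and 0 members were called; the block changed no call. Leaving out libraries gave 0 to 1 intervals lower at 2 h (1 without the 2 h clone A library). Between the clones, leaving out libraries gave 5252 to 8087 intervals higher in clone A and 3414 to 4398 in clone B, with 2 to 5 and 0 to 8 members. Without the 0 h clone B library, 0 members were higher in clone B; without either clone A library 3 were, and without the 2 h clone B library 8 were and 2 were higher in clone A. The lone library of a clone is then assumed to vary like the other clone. With 1 interval per named gene, 3181 and 2112 intervals were called (fewer intervals tested, 19941), with 6 members higher in clone A and 7 in clone B. DESeq2 called 5666 and 3028 intervals, and 2 members in clone A and 0 in clone B; the cause was not tested. The limit decides how many members are marked: 0 at 4 times, 6 at 2 times, 2 (Cyp2r1 and Cyp1a1) where the median coding gene of at least 1000 bp sets it (3.10 times the median gene), and 1 (Cyp2r1, 4.15 times) with the longest interval. None of the log2 differences recomputed (6 members over 2 h, 10 between the clones) changed sign; those of neighbours and list genes were not recomputed. Input was not analysed, so differences in mappability between genes remain in every density, and genes with few counts, such as Cyp2b13, bound no change. Leaving out the 8 members with near-identical windows, and reading nested intervals as differences, were chosen after seeing the data.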
